A study of Mus musculus with 13 samples.

Results

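A set of 9 genes of B cell identity and B cell receptor (BCR) signaling was examined in bulk RNA-Seq of whole parametrial white adipose tissue (pmWAT), a gonadal fat depot of female mice. The 9 genes, Cd79a, Cd79b, Ms4a1, Cd22, Pax5, Blnk, Btk, Stap1 and Cr2, were chosen by name and are 9 of the 33618 gene rows of the count table. Earlier results of these data were known when the 9 genes and the other gene lists were chosen. Shares of these lists beside those of all genes are therefore descriptions, not tests of enrichment. All 9 had enough counts to be tested, as did 16753 rows in all. The study asked what happens in fat when lamin A/C, the nuclear envelope protein encoded by Lmna, is deleted from adipocytes of adult mice. Libraries came from 7 mice labelled fl/fl, which carried loxP sites around Lmna exons and no Cre, and from 6 mice labelled iADKO, which carried the same Lmna fl/fl alleles and 1 copy of Adipoq-CreERT2. Every mouse of either genotype received tamoxifen at 50 mg/kg on 5 days at 12 to 14 weeks of age, and tissue was taken 2 weeks posttamoxifen. The Adipoq promoter drives this Cre in adipocytes, so the deletion was not aimed at B cells. Strain background was not given in the sources used here.

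The BCR is a membrane immunoglobulin paired with the signaling chains CD79A and CD79B. When antigen binds, Src-family kinases such as LYN phosphorylate these chains, SYK docks on them, and the adaptor BLNK brings BTK to phospholipase C gamma 2. The complement receptor CR2 lowers the threshold for this response, whereas CD22 recruits the phosphatase encoded by Ptpn6 and dampens it. B cells are resident in adipose tissue, where they produce antibody and cytokines. Several of these proteins are not restricted to B cells: BTK, BLNK and STAP1, as well as SYK, LYN and PTPN6, are also made by myeloid cells such as macrophages.

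Libraries held 18854223 to 19776491 counted reads, with medians of 19533703 (fl/fl, n = 7) and 19494365 (iADKO, n = 6). Values are given as read counts scaled to library size (CPM) after TMM normalization, a scaling that corrects for differences in library composition, and errors are SD between mice. Lmna did not separate the labels: whole-gene levels were 84.7 ± 7.51 CPM (n = 7) in fl/fl and 96.7 ± 11.5 CPM (n = 6) in iADKO, a log2 difference of 0.19 (SE 0.079, edgeR adjusted p = 0.0785). The counts cover the whole gene, so the floxed exons could not be read apart, and every direction below rests on the labels. Adipocyte genes, which define the tissue, were expressed in every library, and all 8 of 8 tested were lower in iADKO, with summed levels of 9622 to 16656 CPM in fl/fl and 5838 to 9628 CPM in iADKO. The lowest fl/fl sum (9622 CPM, replicate 5) and the highest iADKO sum (9628 CPM, replicate 6) were nearly level. The other libraries held 12611 to 16656 CPM in fl/fl and 5838 to 7058 CPM in iADKO. What set these libraries apart from their groups was not tested. The library labelled iADKO replicate 6 stood apart in epithelial genes, at 37.2 CPM for the epithelial cadherin Cdh1 against 0.215 to 7.31 CPM in the other 12 libraries. The library labelled fl/fl replicate 5 stood apart in macrophage genes, with a summed level of 6157 CPM against 2567 to 4238 CPM in the other fl/fl libraries. List counts that moved by over 1.5 times when either library was left out are also given without it.

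Of the 9 BCR genes, 6 rose in the libraries labelled iADKO and 0 fell. Stap1, Cd22, Blnk, Cd79b, Btk and Cd79a passed an adjusted p of 0.05 in edgeR's quasi-likelihood test, with fold changes of 1.59 to 2.27. Ms4a1, Pax5 and Cr2 did not pass, although their estimated log2 differences of 0.75, 0.79 and 0.96 were of similar size. Among all tested genes, 14.1% were called higher and 16.3% lower by the same rule. The median log2 fold change was 0.79 over the 9 genes and 0.03 over all tested genes. For none of the 9 did every iADKO library lie above every fl/fl library, a separation found for 2.71% of all tested genes. The summed level of the 9 genes ran from 51.3 to 121 CPM in fl/fl (median 60.4) and from 108 to 167 CPM in iADKO (median 125), and fl/fl replicate 5 alone of its group overlapped the iADKO range. Without that library 6 of the 9 passed as well, and 3319 of all 16638 genes then tested were called higher. In whole tissue, more cells of a type and more RNA per cell cannot be told apart.

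**Figure D1:**
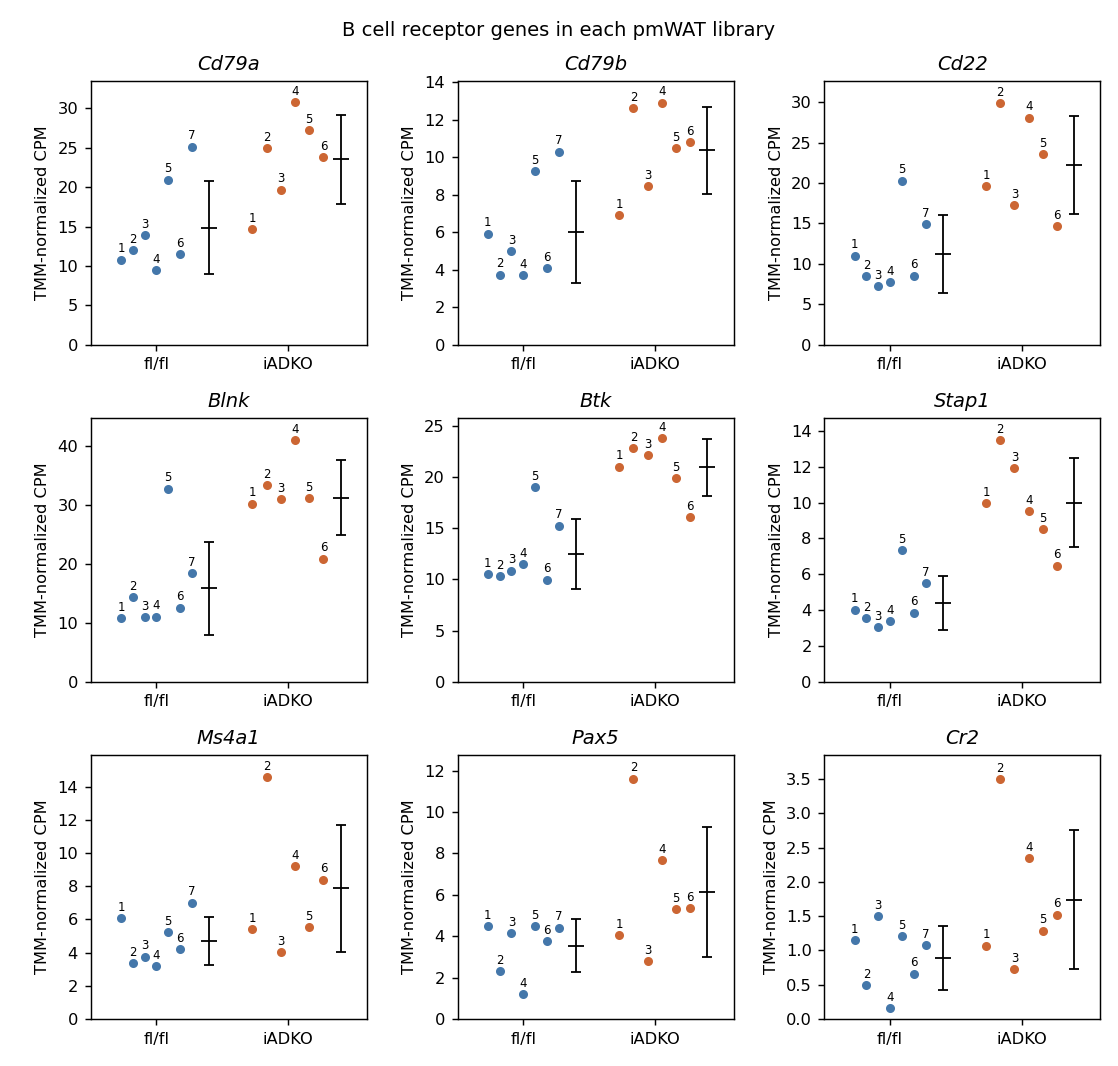
Levels of the 9 genes in TMM-normalized CPM (linear axis from 0) in the 7 fl/fl (blue) and 6 iADKO (orange) libraries, with replicate numbers beside the points and mean ± SD as black bars. fl/fl replicates 5 and 7 reach into the iADKO range for Cd79a, Cd79b and Cd22, and iADKO replicate 2 is the highest library for Ms4a1, Pax5 and Cr2.

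The signaling chains of the receptor rose by about the same amount. Cd79a (chr7:24596740-24601622, GRCm39, plus strand), which encodes Ig-alpha, ran from 9.45 CPM through a median of 12.0 to 25.2 CPM in fl/fl. In iADKO its range was 14.6 to 30.8 CPM with a median of 24.4. All 6 iADKO libraries were above the fl/fl median, but only 2 were above every fl/fl library, as fl/fl replicates 5 and 7 reached 21.0 and 25.2 CPM. Means were 14.8 ± 5.91 (n = 7) and 23.5 ± 5.70 CPM (n = 6), a log2 fold change of 0.66 (SE 0.24, 95% interval 0.15 to 1.18). The edgeR adjusted p of 0.04995 was only just under the threshold. Cd79b (chr11:106202167-106205588, minus strand) encodes Ig-beta, and it ran from 3.70 through 4.97 to 10.3 CPM in fl/fl and from 6.91 through 10.6 to 12.9 CPM in iADKO. Here 4 of 6 iADKO libraries lay above every fl/fl library. The log2 fold change was 0.79 (SE 0.26, 95% interval 0.23 to 1.34, edgeR adjusted p = 0.0338). Both calls were lost in most fits with 1 library left out. Cd79a passed in 3 of 13 such edgeR fits (adjusted p from 0.00992 to 0.106) and Cd79b in 5 of 13 (0.00873 to 0.0716). Log2 fold changes in those fits were 0.58 to 0.84 for Cd79a and 0.70 to 0.97 for Cd79b. Cd79a held without fl/fl replicates 5 or 7 or iADKO replicate 1, and was lost without any of the other 10 libraries. Cd79b was lost without fl/fl replicates 1, 2, 3, 4 or 6 or iADKO replicates 2, 4 or 5.

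Cd22 and Blnk had fold changes of 1.98 and 1.97. Cd22 (chr7:30564827-30579767, minus strand), the inhibitory lectin of the receptor, had 7.22 CPM in its lowest fl/fl library, a median of 8.55 and a highest value of 20.3. The iADKO libraries held 14.6 to 29.9 CPM with a median of 21.6, and 5 of 7 fl/fl libraries were below all of them. Its log2 fold change was 0.99 (SE 0.26, 95% interval 0.44 to 1.54, edgeR adjusted p = 0.0117). Blnk (chr19:40916595-40982978, minus strand), the adaptor between SYK and BTK, ran from 10.7 through 12.6 to 32.7 CPM in fl/fl and from 20.9 through 31.0 to 40.9 CPM in iADKO. The value of 32.7 CPM belonged to fl/fl replicate 5, and the other 6 fl/fl libraries were below every iADKO library. The log2 fold change of Blnk was 0.98 (SE 0.26, 95% interval 0.42 to 1.54, edgeR adjusted p = 0.0134), and it was 1.27 (adjusted p = 0.000107) without that library. Both genes passed in each of the 13 fits with 1 library left out.

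The kinase Btk and the adaptor Stap1 showed the clearest separation. Btk (chrX:133443084-133484319, minus strand), whose product activates phospholipase C gamma 2, had 9.99 to 19.03 CPM in fl/fl (median 10.9) and 16.1 to 23.8 CPM in iADKO (median 21.6). Only iADKO replicate 6 (16.1 CPM) fell inside the fl/fl range, below fl/fl replicate 5. The log2 fold change was 0.74 (SE 0.15, 95% interval 0.42 to 1.07, edgeR adjusted p = 0.00299). Stap1 (chr5:86219605-86253984, plus strand), an adaptor protein of tyrosine kinase signaling, ran from 3.06 through 3.86 to 7.34 CPM in fl/fl. In iADKO it ran from 6.48 through 9.76 to 13.5 CPM. Again 5 of 6 iADKO libraries exceeded every fl/fl library, the exception being replicate 6. Its log2 fold change of 1.18 (SE 0.21, 95% interval 0.73 to 1.64, edgeR adjusted p = 0.00153) was the largest of the 9. These calls held in each of the 13 fits with 1 library left out and in each of 7 other ways of processing the counts.

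The genes of mature B cell identity were the most uneven among the iADKO mice. Ms4a1 (chr19:11227039-11243605, minus strand), which encodes the B cell surface protein CD20, ran from 3.17 through 4.19 to 7.00 CPM in fl/fl and from 4.04 through 6.97 to 14.6 CPM in iADKO. Pax5 (chr4:44524757-44710487, minus strand), the transcription factor that maintains B cell commitment, ran from 1.18 through 4.16 to 4.50 CPM and from 2.79 through 5.33 to 11.6 CPM. Cr2 (chr1:194819119-194859091, minus strand) encodes the complement receptors CR2 and, by splicing, CR1, which gene-level counts do not separate. It had 0.161 to 1.502 CPM in fl/fl and 0.722 to 3.50 CPM in iADKO, from only 3 to 75 reads per library. For all 3 genes the highest value was in iADKO replicate 2, and iADKO replicate 3 lay below the fl/fl median. The edgeR adjusted p was 0.0608 for Ms4a1, 0.0925 for Pax5 and 0.0986 for Cr2. Their 95% intervals of 0.14 to 1.36, 0.06 to 1.52 and 0.05 to 1.87 on the log2 scale include differences as large as those of the genes that passed. Ms4a1 passed without fl/fl replicate 7 or without iADKO replicate 3 (log2 fold changes of 0.87 and 0.88), whereas Pax5 and Cr2 passed in 0 of 13 such fits (edgeR adjusted p at best 0.0504 and 0.0642).

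**Figure D2:**
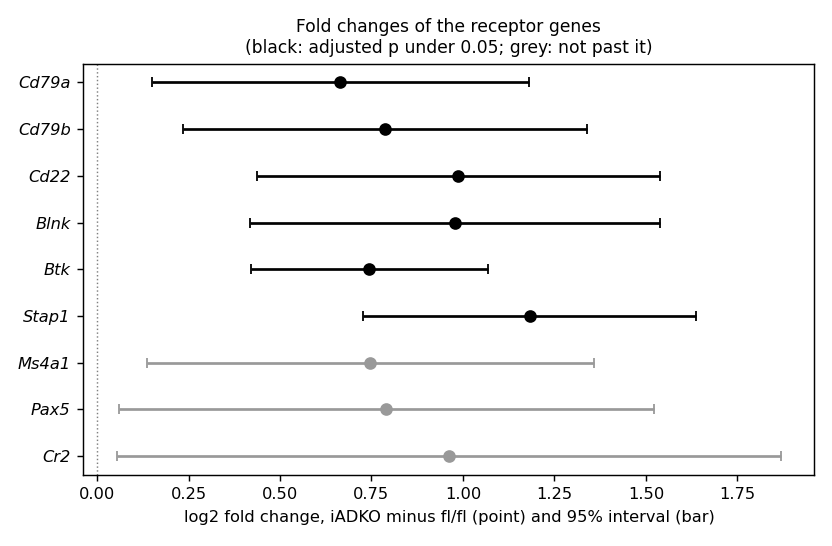
Log2 fold changes (iADKO minus fl/fl) of the 9 genes, with 95% intervals from the edgeR fit over 7 and 6 libraries. Every interval lies above 0, and the adjusted p of Ms4a1, Pax5 and Cr2 (grey) is above 0.05.

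The 9 genes did not vary as a single block from mouse to mouse. Pearson's r was taken between log2 CPM values over the 13 libraries after each group mean was subtracted, as a description of likeness among libraries that share depth and tissue makeup. Its median over the 36 pairs of the 9 genes was 0.63. Ms4a1, Pax5 and Cr2 were alike, with a median r of 0.84 over their 3 pairs, and Pax5 with Cr2 reached 0.97, the highest of the 36. Blnk, Btk and Stap1 were alike too, with a median r of 0.88. Between these sets of 3 the median over 9 pairs was 0.31, and the lowest pair was Ms4a1 with Blnk at 0.26. Cd79a and Cd79b formed a close pair at 0.91, and Cd22 had r of 0.84 to 0.87 with Blnk, Btk and Stap1 but 0.54 to 0.62 with Ms4a1, Pax5 and Cr2. The sets of 3 were set apart after these values were seen. Without fl/fl replicate 5 and iADKO replicate 6, a choice also made after seeing the data, the medians over the 11 other libraries were 0.86 for Ms4a1, Pax5 and Cr2, 0.66 for Blnk, Btk and Stap1, and 0.32 between them. The likeness of Cd22 did not hold there: its r was 0.62 to 0.68 with Blnk, Btk and Stap1 and 0.59 to 0.88 with Ms4a1, Pax5 and Cr2.

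**Figure D3:**
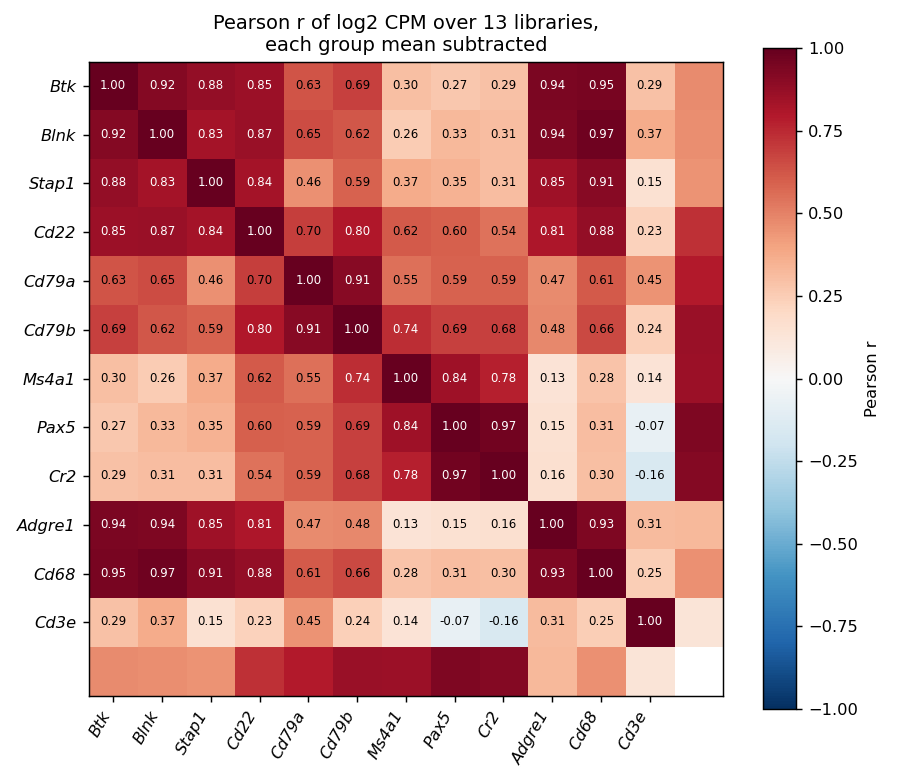
Pearson's r of log2 CPM over 13 libraries with group means subtracted, for the 9 genes, the macrophage genes Adgre1 and Cd68, and the T cell gene Cd3e. Blnk, Btk, Stap1 and Cd22 form a dark square with Adgre1 and Cd68 (r from 0.81 to 0.97), and Ms4a1, Pax5 and Cr2 form another (0.78 to 0.97).

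Macrophage genes varied with Blnk, Btk and Stap1. Of 14 macrophage genes tested, 8 rose and 0 fell, with a median log2 fold change of 0.62. With the series of animal numbers in the library names as a term in the edgeR model, 0 of the 14 passed. That model called 784 of all 16753 tested genes higher, against 2367 without the term. It draws the genotype difference only from series that hold both genotypes, as given below. The log2 fold change of Cd68 was 1.06 in both models (edgeR adjusted p = 0.0118 without and 0.0680 with the term). For Adgre1 it was 0.82 (0.00563) without and 0.76 (0.0580) with the term. The summed level of the 14 macrophage genes was 2567 to 6157 CPM in fl/fl and 3757 to 6483 CPM in iADKO. Cd68, which encodes a lysosomal protein of macrophages, had r of 0.97 with Blnk, 0.95 with Btk, 0.91 with Stap1 and 0.88 with Cd22. Its r was 0.28 with Ms4a1, 0.31 with Pax5 and 0.30 with Cr2, and 0.61 and 0.66 with Cd79a and Cd79b. In fl/fl replicate 5, where the macrophage sum was highest of its group, Blnk, Btk, Cd22 and Stap1 were also highest of the fl/fl group. In iADKO replicate 6, where the sum was lowest of its group, the same 4 genes were lowest. Without those 2 libraries the r with Cd68 was 0.88 for Blnk, 0.82 for Btk, 0.78 for Stap1 and 0.72 for Cd22, and 0.48 for Ms4a1, 0.28 for Pax5 and 0.24 for Cr2. It was 0.68 for Cd79a and 0.72 for Cd79b, so Cd22 did not stand apart from them there. The r with Adgre1 was then 0.79 for Blnk and 0.83 for Btk. It was 0.51 for Stap1, 0.51 for Cd22, 0.56 for Cd79a and 0.50 for Cd79b. For Ms4a1, Pax5 and Cr2 it was 0.32, -0.03 and -0.02. The part of macrophage RNA in the rises of Blnk, Btk, Stap1 and Cd22 was not tested.

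**Figure D4:**
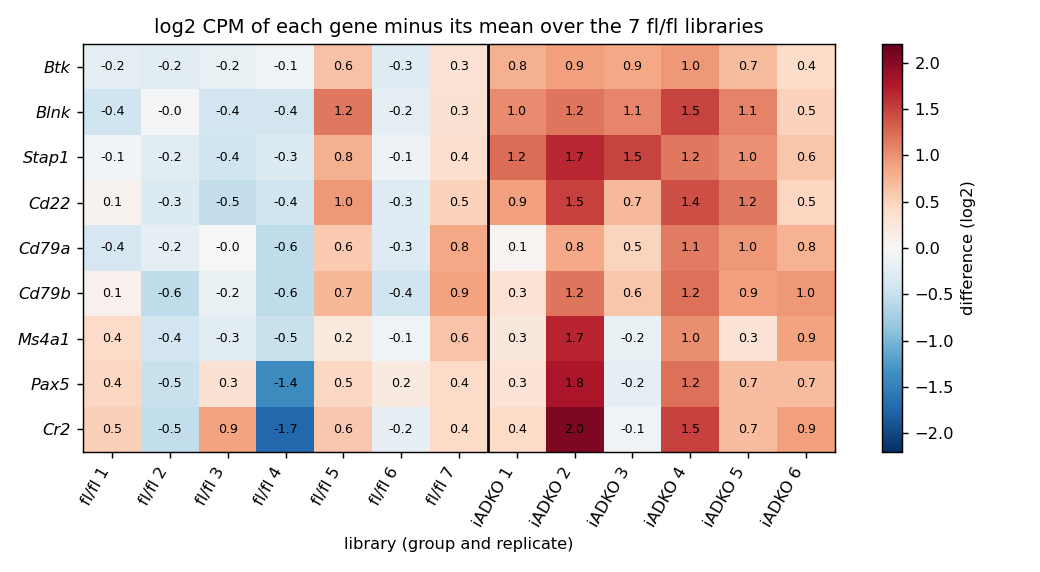
Log2 CPM of each gene minus its fl/fl mean in the 7 fl/fl and 6 iADKO libraries (colour and printed value, log2 units). The rows of Btk, Blnk, Stap1, Cd22, Cd79a and Cd79b are above 0 in all 6 iADKO libraries and in fl/fl replicates 5 and 7. Cd22 and Cd79b are also slightly above 0 in fl/fl replicate 1. Ms4a1, Pax5 and Cr2 are below 0 in iADKO replicate 3 and highest in iADKO replicate 2.

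By the likeness rule fixed for Cd79a, the 5 genes nearest to it among the other 16752 tested were Fcrla (r = 0.93), H2-Eb2 (0.91), Phf11b (0.90), Pou2af1 (0.89) and Gpr55 (0.89). Pou2af1 encodes the octamer coactivator OBF-1 of B cells and had 15.9 ± 7.66 CPM (n = 7) in fl/fl and 21.9 ± 5.20 CPM (n = 6) in iADKO. Of the 5, H2-Eb2 (edgeR adjusted p = 0.0121) and Phf11b (0.00359) rose. Outside that rule, and chosen after their values were seen, the gene nearest to Pax5 was Fcer2a, the low-affinity IgE receptor CD23 (0.95), while the gene nearest to Btk was the complement gene C1qc of macrophages (0.98).

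Per kilobase of annotated exon, Cd79a was the most abundant of the 9 transcripts in iADKO, at 15.4 ± 3.74 CPM per kb (n = 6). Cd79b (7.24 ± 1.63) and Btk (6.65 ± 0.88 CPM per kb) followed, and their levels did not differ beyond their spread. Blnk (4.56 ± 0.94) and Cd22 (4.401 ± 1.20 CPM per kb) were likewise within each other's SD, as were Stap1 (1.61 ± 0.40) and Ms4a1 (1.27 ± 0.62 CPM per kb). Pax5 at 0.69 ± 0.35 and Cr2 at 0.21 ± 0.12 CPM per kb were the least abundant, and Pax5 was within the spread of Ms4a1. In fl/fl the order was the same except that Ms4a1 (0.76) was above Stap1 (0.71 CPM per kb). With the length of the longest transcript in place of the exon union, Btk (8.24) moved above Cd79b (7.24 CPM per kb).

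The animal numbers in the library names fall into 4 series, and only 2 of these hold both genotypes. Within the series of fl/fl replicates 4 and 5 and iADKO replicates 4 and 6, all 9 genes were higher in iADKO, by 0.40 (Btk) to 1.76 (Cr2) on the log2 CPM scale. Within the series of fl/fl replicates 1 to 3 and iADKO replicates 1 and 2, all 9 were again higher, by 0.65 (Cd79a) to 1.69 (Stap1). The remaining series hold fl/fl replicates 6 and 7 alone and iADKO replicates 3 and 5 alone. With series as a term in the edgeR model, those libraries add nothing to the estimated genotype difference. It then rests on fewer mice, so a lost call can reflect fewer mice as well as the series. In that model 784 of all 16753 tested genes were called higher, against 2367 without the term. Of the 9 genes 3 passed, Btk (adjusted p = 0.0352), Stap1 (0.0279) and Ms4a1 (0.0375). Cd79a (0.0959), Cd79b (0.0752), Cd22 (0.0602) and Blnk (0.0694) no longer passed, with log2 differences of 0.76 to 1.08. All libraries carry the same batch date in the labels, and what the number series mark is not given in the sources used here.

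The rest of the pathway was taken from a list of 41 other BCR signaling genes, all tested. Of these, 25 rose and 0 fell, with a median log2 fold change of 0.58, against 14.1% of all tested genes called higher. The coreceptor Cd72, an inhibitory lectin of B cells, went from 5.05 ± 1.11 (n = 7) to 12.0 ± 2.52 CPM (n = 6), a log2 fold change of 1.25 (edgeR adjusted p = 0.000321). The adaptor Lat2 had a log2 fold change of 1.16 (edgeR adjusted p = 0.00784). For 4 of the 41, Cd72, Lck and Vav3 among them, every iADKO library lay above every fl/fl library. The kinases that act nearest the receptor also rose. The log2 fold change was 0.75 for Syk (edgeR adjusted p = 0.0268) and 0.42 for Lyn (0.00378). Plcg2, which encodes phospholipase C gamma 2, rose by 0.58 (edgeR adjusted p = 0.00748), and Ptpn6, the phosphatase recruited by CD22, by 0.76 (0.0104). The 16 genes that did not pass include the B cell genes Blk and Bank1, beside Fcgr2b, Malt1 and Stim1. With the series term 10 of the 41 passed, among them Cd72 (edgeR adjusted p = 0.0154), Lat2 (0.0352) and Lyn (0.0487). Syk (0.124), Plcg2 (0.0698) and Ptpn6 (0.0631) did not pass in that model.

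**Figure D5:**
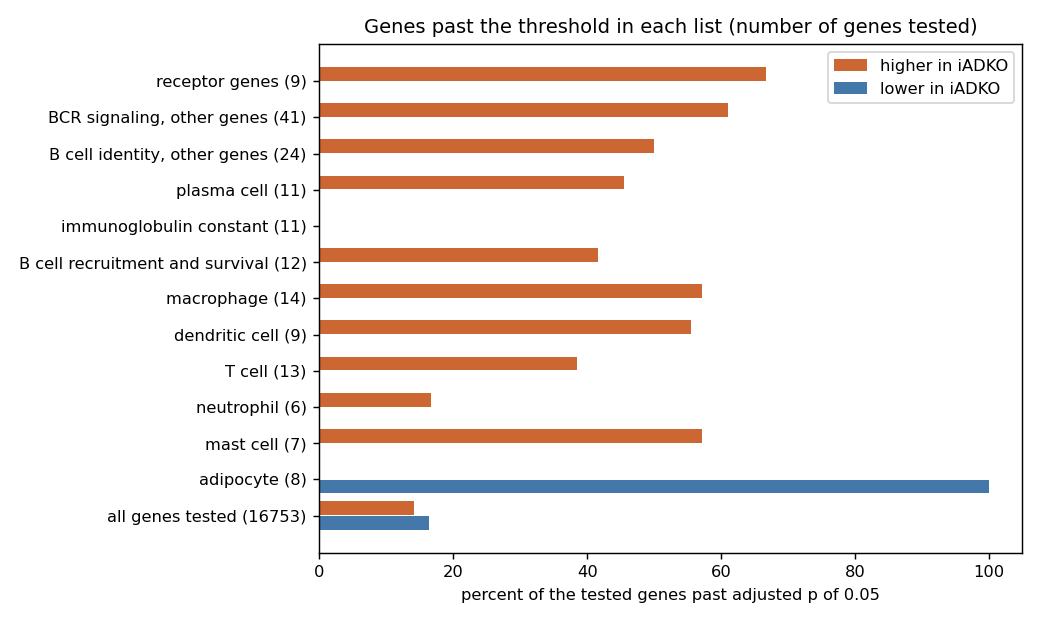
Percent of the tested genes of each list past an adjusted p of 0.05 in edgeR, higher (orange) or lower (blue) in iADKO, with the number tested in parentheses. Of the 9 BCR genes 66.7% were higher, against 57.1% of macrophage genes, 38.5% of T cell genes and 14.1% of all tested genes, and 100% of the adipocyte genes were lower. The lists were chosen with earlier results of these data known.

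Among 24 other B cell identity genes tested, 12 rose and 0 fell (median log2 fold change 0.63), and with the series term 6 passed. Ly6d had the largest change, 1.78, but its level of 43.4 CPM in iADKO replicate 6, the library with the epithelial genes, stood against 1.61 to 10.6 CPM in the others, and its edgeR adjusted p went from 0.0476 to 0.148 without that library. Fcmr, the Fc receptor for IgM, rose by 0.98 (edgeR adjusted p = 0.0164), Cxcr5, the receptor for CXCL13, by 0.95 (0.0230) and Vpreb3 by 0.94 (0.0165), and all 3 held without iADKO replicate 6. Without that library 11 of the 24 were higher and 1 was lower, Ebf1, which encodes a transcription factor of B cells and of adipocyte precursors (log2 difference -0.31, edgeR adjusted p = 0.00303). With all 13 libraries Ebf1 was at -0.21 (edgeR adjusted p = 0.0947), and it is named here after its values were seen. Of the 9 BCR genes 5 passed without iADKO replicate 6, Cd79a being the one lost (edgeR adjusted p = 0.0710).

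Genes of antibody-secreting cells gave a mixed result. Of 11 plasma cell genes 5 rose, led by Slamf7 (log2 fold change 0.95, edgeR adjusted p = 0.00629), Tnfrsf17 (0.83, 0.0136) and the syndecan Sdc1 (0.74, 0.00477). The 6 that did not pass include Jchain (0.68, 0.104), Mzb1 (0.56, 0.154), Irf4 (0.21, 0.600) and Xbp1 (-0.02, 0.839). Of 11 immunoglobulin constant region genes, 0 passed in edgeR, although all 11 log2 fold changes were positive (median 0.65), 6 had an unadjusted p under 0.05 and 2 passed in DESeq2. Without fl/fl replicate 5, 4 of the constant region genes and 8 of the plasma cell genes passed in edgeR, and without iADKO replicate 6, 1 and 5. With the series term 0 constant region and 2 plasma cell genes passed, Slamf7 and Sdc1, while Tnfrsf17 did not (edgeR adjusted p = 0.0868). The summed level of the constant region genes was 2841 to 9184 CPM in fl/fl and 5713 to 10227 CPM in iADKO, and fl/fl replicates 5 and 7 lay inside the iADKO range. Of 9 genes linked to B-1 and innate-like B cells, Cd9 and Spn rose and Cd1d1 fell by 0.92 on the log2 scale (edgeR adjusted p = 0.00134). Cd1d1 had 382 ± 68.8 CPM (n = 7) in fl/fl, and its transcript is also made by adipocytes.

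Signals that draw B cells into tissue were tested as a list of 14 genes, 12 of which had enough counts. Of these 5 rose and 0 fell, among them Ccr7 (log2 fold change 1.07), Cxcl13 (0.72), Ccr6 (0.72) and Ltb (0.45), with edgeR adjusted p from 0.00852 to 0.0407. Cxcl13, the chemokine that attracts CXCR5-bearing B cells, went from 5.43 ± 1.70 (n = 7) to 8.98 ± 2.26 CPM (n = 6). The B cell survival factor Tnfsf13b and the chemokines Ccl21a and Cxcl12 did not pass. Without fl/fl replicate 5, 7 of the 12 passed. Of 7 lymph node genes tested Cxcl13 alone rose, but without fl/fl replicate 5 Fut7 and Clu also passed, and with the series term 0 of the 7 did. The vessel genes Glycam1 and Madcam1 had 1 and 42 reads over all 13 libraries. Of 13 T cell genes 5 rose (2 with the series term), and the list's summed levels were 39.9 to 58.4 CPM in fl/fl against 62.8 to 74.4 CPM in iADKO, which did not overlap. The part of other immune cells, and of the lower adipocyte RNA, in the rises of the 9 BCR genes was not tested.

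Promoter sequence was examined for motifs of B cell and myeloid transcription factors in the 250 bases before the annotated start of each gene (GENCODE vM39, GRCm39), on both strands. The motifs were the EBF1 motif CCCNNGGG, the octamer ATGCAAAT, the PU.1 core GAGGAAG and the E-box CAGGTG. The octamer was in 1 of the 9 promoters (Blnk, 23 to 16 bases before the start) and in 1.489% of 21757 protein-coding promoters. The PU.1 core was in 3 of 9 (Cd22, Stap1 and Cr2) and in 10.319% of all promoters. The E-box was in 3 of 9, Stap1 and Cr2 among them, and in 17.677%, and the EBF1 motif was in 1 of 9 and in 12.768%. Windows of Cd79a, Cd79b, Pax5 and Btk held none of these letters. The windows of Blnk and Stap1 are shown because they lie wholly before their genes, hold matches and belong to genes that varied with macrophage genes. Each reads 5′ to 3′ on the strand of its gene, with matches in capitals, and a match on the opposite strand appears as its reverse complement.
Blnk, chr19:40982979-40983228, minus strand: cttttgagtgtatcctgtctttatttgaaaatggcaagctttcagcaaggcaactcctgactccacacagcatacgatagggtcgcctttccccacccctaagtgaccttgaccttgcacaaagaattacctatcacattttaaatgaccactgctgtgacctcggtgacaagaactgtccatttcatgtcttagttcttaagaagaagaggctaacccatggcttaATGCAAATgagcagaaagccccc
Stap1, chr5:86219355-86219604, plus strand: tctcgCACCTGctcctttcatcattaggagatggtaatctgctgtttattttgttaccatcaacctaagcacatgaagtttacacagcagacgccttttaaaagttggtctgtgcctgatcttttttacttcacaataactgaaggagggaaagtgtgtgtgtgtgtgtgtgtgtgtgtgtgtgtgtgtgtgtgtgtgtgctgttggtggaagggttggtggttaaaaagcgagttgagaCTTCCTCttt
In Blnk the capitals are the octamer. In Stap1 they are the E-box and, 10 to 4 bases before the start, the PU.1 core, both on the opposite strand. A match is a description of the letters, and no binding was measured.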

How the data were processed

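Whole pmWAT from 13 mice was profiled by strand-specific mRNA sequencing at BGI. The authors deposited 33618 rows of unnormalized read counts, 1 for each Ensembl gene identifier. They also deposited log2 values, which are DESeq2's regularized log of the same counts. Per the submitters' processing notes, FastQC 0.12.1, STAR 2.7.11a and DESeq2 were used with mm39. The counting tool and its strand setting are not given in the sources used here. Overlapping genes present in the table had at most 36 counts in all.

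Groups were taken from the sample labels. Symbols and coordinates came from GENCODE vM39 (33184 identifiers matched). Low genes were removed with filterByExpr, libraries were scaled by TMM, and groups were compared with edgeR 4.0.16 robust quasi-likelihood tests (R 4.3.3) with Benjamini-Hochberg adjustment over all 16753 genes at 0.05. SE is the absolute log2 fold change over the square root of F, and log2 CPM used a prior count of 2. Alternatives used DESeq2 1.42.0, its size factors, limma 3.58.1 on the deposited log2 values, other filters, blocks, and each library left out. The labels do not say more than that samples are separate mice, so p-values measure the spread between these mice. Scripts were tested on simulated data.

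The 9 genes and the gene lists were chosen with earlier results of these data known. Named genes are the 9, Lmna, Syk, Lyn, Plcg2, Ptpn6, up to 4 genes with the largest change past the threshold in each list, and the 5 genes most like Cd79a. Protein sequences were not used here, and some single-gene and sequence results are not reported here.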

Additional observations from a re-analysis of the deposited data

Results flagged for a closer look

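Blnk in the library labelled fl/fl replicate 5 was at 32.7 CPM, far from the nearest fl/fl value of 18.5 CPM, and this gap was 0.65 of the range of the group. It was 1 such case in 20 groups of values examined, and a test at the 95% level flags about 1 in 20 groups by chance. The same library had the highest macrophage gene sum of its group, 6157 CPM, and the part of macrophage RNA in the Blnk value was not tested.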

How the results depend on the processing

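The direction of the 9 genes was positive in every alternative in which they were tested. Of 179 member values under alternatives, 150 kept their side of the threshold, 25 no longer passed and 4 newly passed. With the animal-number series as a block, 1986 genes passed in place of 5104, with 3 of the 9 BCR genes, 10 of the other BCR signaling genes, 6 of the B cell identity genes and 3 of the recruitment genes. With no filter on low counts 3 recruitment genes passed, and 4 of the 9, where 1623 of all 33618 tested genes were called higher. DESeq2's size factors gave 5 of the 9, where 2176 of all 16753 tested genes were called higher. Its Wald test gave 7 of the 9, where 2513 of 16753 were called higher. With 1 library left out, 3998 to 6604 genes passed, 4 (without fl/fl replicate 1) to 7 (without fl/fl replicate 7) of the 9, 19 to 29 other BCR signaling genes, 8 to 14 identity genes and 3 to 7 recruitment genes. The recruitment count was 3 without fl/fl replicates 1, 2, 4 or 6 or iADKO replicates 2 or 4. Lmna ranged from 0.15 to 0.24, passing without fl/fl replicate 1 (0.23) or iADKO replicate 6 (0.24). The cause of these changes was not tested. The replicate numbers were not taken to pair the samples, since r was over 0.1 in 3 of 6 same-numbered pairs (mean 0.107, against -0.025 for other pairs), and 5 of 12 samples were nearest their own number. A replicate block, without the unpaired fl/fl replicate 7, gave 4833 genes, 6 of the 9, 26, 14 (13 higher, and Ebf1 lower) and 5 genes of those lists, and 0.19 for Lmna. Cr2, at 3 to 75 reads per library, was untested when 10 counts were required in every library.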

Other observations

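Other immune genes were higher in iADKO in lists not described above. Of 7 mast cell genes, 4 rose, with log2 fold changes of 0.90 for the chymase Cma1, 0.88 for Mcpt4, 0.67 for Cpa3 and 0.64 for Tpsb2 (edgeR adjusted p from 0.00135 to 0.00241). Of 9 dendritic cell genes, 5 rose, among them Itgax (1.01), Batf3 (0.77), Flt3 (0.69) and Xcr1 (0.59), and 2 of the 9 passed with the series of animal numbers as a term. Of 6 neutrophil genes, Retnlg (1.28, edgeR adjusted p = 0.00980) rose and the other 5 did not pass. Without fl/fl replicate 5, 2 of the 6 passed, and with the series term 0. Of 6 proliferation genes 4 rose (6 without iADKO replicate 6, 1 with the series term), with Mki67 at 17.9 ± 3.95 CPM (n = 7) in fl/fl and 25.5 ± 3.88 CPM (n = 6) in iADKO. Of 6 endothelial genes, Kdr and Cdh5 fell by 0.48 and 0.29 on the log2 scale.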
